A study of Macaca fascicularis with 34 samples.

Results

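The extracellular matrix genes described here are the collagens, the laminins and 4 matrix partners, fibronectin (FN1), versican (VCAN), HAPLN1 and LOXL1, measured in 34 single cells of cynomolgus monkeys (Macaca fascicularis). Members were chosen by name: every gene whose paired human symbol is that of a collagen chain or a laminin chain, plus those 4. This gave 58 of the 28551 genes in the table, made up of 43 collagen genes, 11 laminin genes and the 4 others. They were divided by the structure their protein joins into 11 fibrillar collagens, 17 basement membrane genes (6 type IV collagens and the 11 laminins), 2 multiplexins, 10 fibril-associated collagens, 5 beaded filament collagens, 9 other collagens and the 4 others.

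Fibrillar collagens form the banded fibres of connective tissue and are secreted mainly by mesenchymal cells. Type IV collagens and laminins form instead the sheet-like basement membrane on which epithelia rest, laminin as a trimer of an alpha, a beta and a gamma chain. Mesoderm leaving the epiblast at gastrulation, and the primordial germ cells that later migrate through it, both move along such matrix, in which fibronectin is a main substrate of cell adhesion and versican with HAPLN1 binds hyaluronan.

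The embryo gave 25 of the 34 cells: 3 at embryonic day 13 (E13), 1 at E14, 11 at E16, 2 at E17 and 8 at E20. Male gonads gave the other 9, of which 6 were taken at E36, 1 at E47 and 2 at E55. The labels give the subspecies (fascicularis), tissue, stage and, for gonads, sex, and name no treatment, animal or cell type. A stage is therefore treated as a single sample: its values come with the SD over its cells, and no difference was tested. SC3-seq reads the 3' ends of transcripts, so levels are reads per 1000000 reads (RPM) with no division by length, and levels of different genes are set side by side without ranking the genes. A difference is that of mean log2(RPM + 1), and 2-fold means a difference of at least 1. A gene is said to have reached 15 RPM in a cell, which corresponds to 7.08 reads in the shallowest cell and 53.3 in the deepest, since depth ran from 472188 to 3556592 reads.

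Markers of other cell types differed between the groups and, with the codes in the sample titles, stand beside each comparison below. Of 11 germ cell markers, 7 to 9 reached 15 RPM in each E16 cell and 7 to 11 in each gonad cell, against 1 to 7 in E20 cells 1 to 7 and 8 in E20 cell 8. Of 10 mesoderm markers, 5 to 8 did so in E20 cells 1 to 7 and 1 to 3 in E16 cells other than E16 cell 8. E16 cell 8 stood apart, with 8 of 10 mesoderm and 9 of 9 endoderm markers, where other E16 cells had 1 to 2 endoderm markers. E20 cell 1 held 4 of the 5 endothelial markers in the table (summed 2046 RPM, CDH5 at 1202 RPM), where every other cell held at most 2. All 11 E16 cells and E20 cell 8 carry the code MS09, E20 cells 1 to 7 carry MS08, and the E17 and gonad cells carry MS11.

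Of the 58 matrix genes, 46 reached 15 RPM in at least 1 cell, 25 did so in at least 10 cells, and 2 (COL10A1 and COL28A1) had no read in any cell. The laminin alpha chain LAMA5 was the most widely detected, at 15 RPM in 34 of 34 cells, followed by COL4A1 and COL4A2 in 32 cells each and LAMC1 in 27. Among the other classes the most widely detected were COL23A1, a membrane-spanning collagen, in 23 cells, COL1A1 and FN1 in 22 cells each, and COL5A1 and COL6A1 in 19 each. A cell thus held basement membrane transcripts at every stage, whereas most other matrix genes were detected in some cells and not in others. Together the members took 0.0507% to 0.249% of the reads of most cells, and more in 5 cells: E16 cell 8 (1.54%) and E20 cells 1, 3, 4 and 5 (0.991%, 2.76%, 1.04% and 1.43%).

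**Figure D1:**
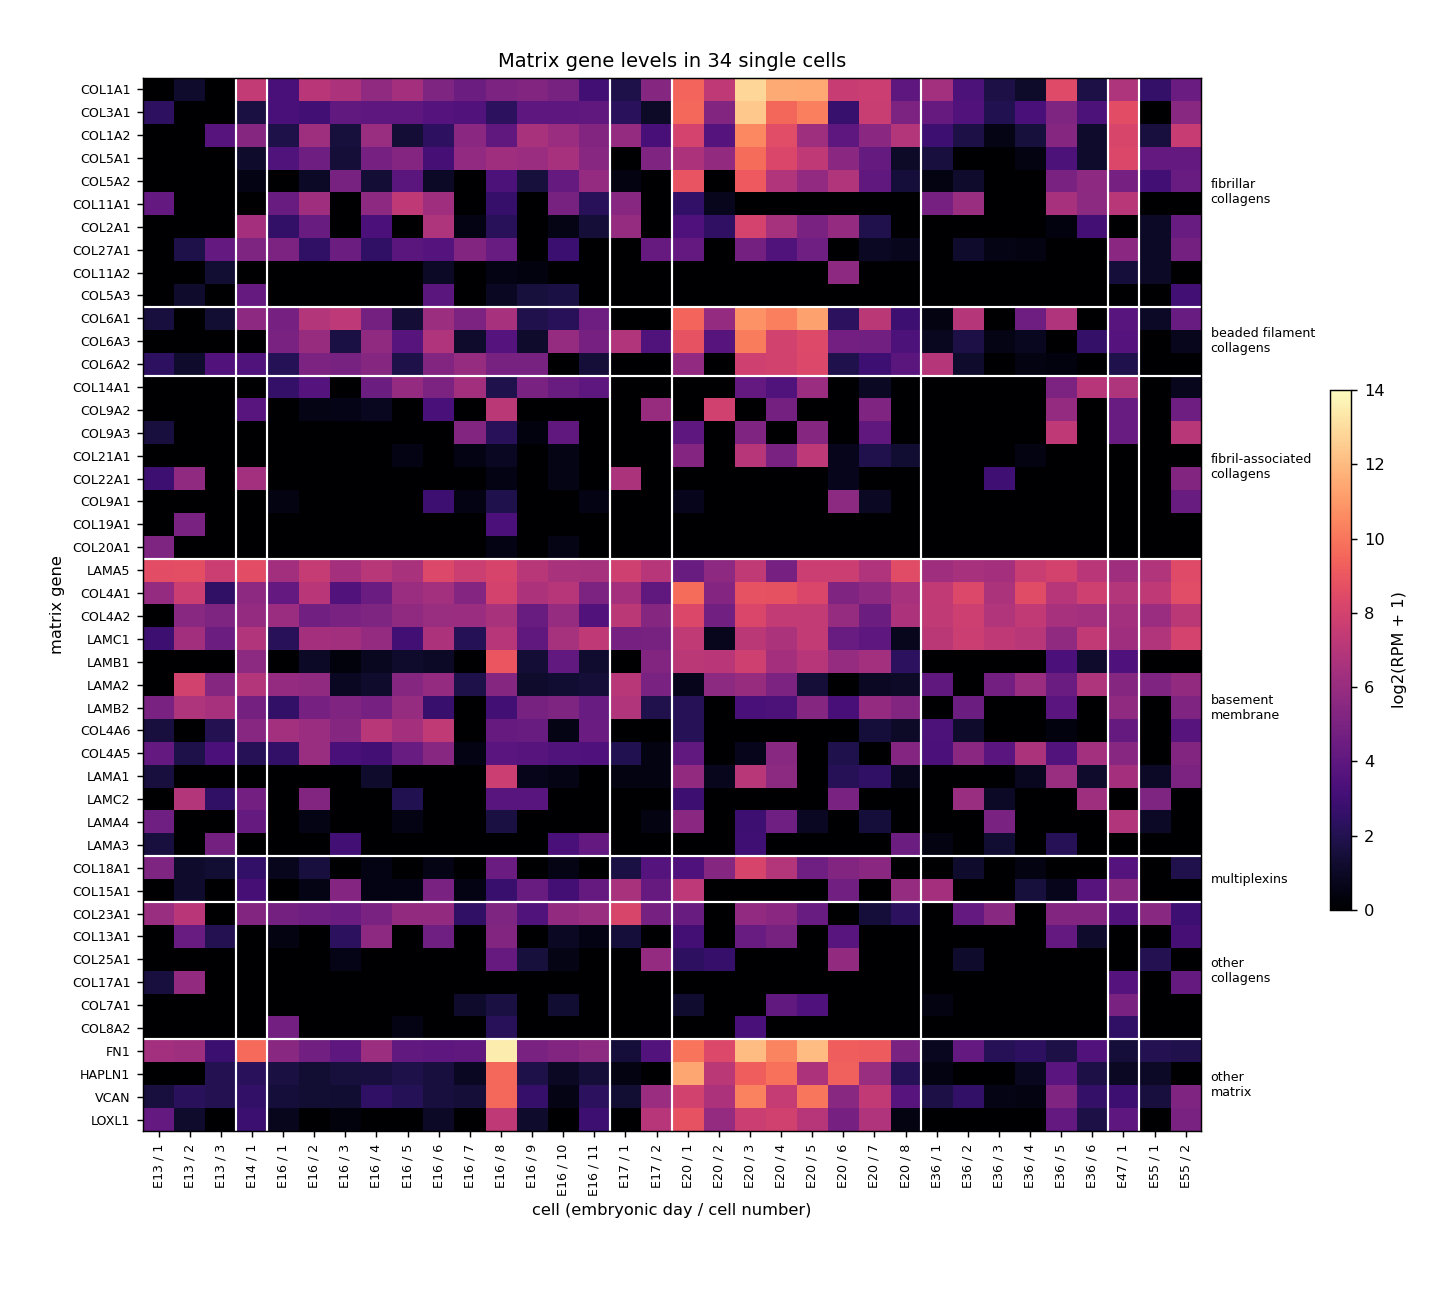
Level of each matrix gene that reached 15 RPM in at least 1 cell (46 genes, one per line of the grid, grouped by class) in each of the 34 cells (columns, by embryonic day and cell number), as log2(RPM + 1). LAMA5 is detected across the grid, COL1A1 and COL3A1 are brightest in E20 cells 1, 3, 4 and 5, and FN1 is brightest in E16 cell 8.

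Of the fibrillar collagens, 6 of 10 were at least 2-fold higher at E20 than at E16 by mean log2 level, against 13.9% of all genes. The summed fibrillar level of E20 cells 2 and 8 (270 and 173 RPM) lay inside the E16 range of 88.4 to 344 RPM. COL1A1, the chain that makes up most of type I collagen, was at 14.8, 464 and 7363 RPM in the lowest, median and highest of the 8 E20 cells, and at 7.12, 33.6 and 141 RPM in the 11 E16 cells. The groups overlapped only through E20 cell 8, the lowest E20 cell, since the other 7 held at least 159 RPM. Summed over cells, the level was 1690 RPM at E20 (exact 95% Poisson interval 1667 to 1714) and 50.6 RPM at E16 (48.0 to 53.4), intervals that cover counting error only. The difference between the stages was 3.79 on the log2 scale, with means of 1796 ± 2546 RPM (SD, n = 8 cells) and 49.9 ± 42.1 RPM (n = 11).

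COL3A1, the chain of type III collagen that accompanies type I in soft tissue, showed the largest difference of the class, 4.17. Its level was 5.45, 470 and 5332 RPM (lowest, median, highest) at E20 and 4.03, 14.4 and 16.3 RPM at E16. All 11 E16 cells lay within this narrow range, with an SD of 4.0 RPM around a mean of 12.2 RPM. One of the 7 MS08 cells, E20 cell 6, lay inside it too, at 5.45 RPM, although its COL1A1 level was 187 RPM. COL1A2, the partner chain of COL1A1 in type I collagen, was at 11.8, 97.5 and 1485 RPM at E20 and at 1.67, 36.9 and 96.5 RPM at E16, a difference of 2.42 with groups that overlapped. COL5A1, whose type V collagen starts fibrils, was at 1.11, 78.2 and 819 RPM at E20 and at 1.69, 38.8 and 92.0 RPM at E16, a difference of 1.26 with overlap.

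Of the 10 fibrillar members measured in this comparison (a mean of at least 1 RPM at 1 of the stages), 6 were at least 2-fold higher at E20 and 1 was lower, with a median difference of 1.73. Over all 14998 genes measured, 13.9% were at least 2-fold higher at E20 and 18.9% were at least 2-fold lower, with a median of -0.12. The other members among the 6 were COL5A2, the partner of COL5A1 (difference 2.90), and COL2A1, the main collagen of cartilage (2.19). The lower member was COL11A1, a minor chain of cartilage-type fibrils, which was at 0, 20.3 and 157 RPM in E16 cells and at 0, 0 and 4.81 RPM in E20 cells, a difference of -3.19. COL11A1 reached 15 RPM in 6 of 11 E16 cells and 0 of 8 E20 cells, opposite in direction to COL1A1 and COL3A1. With E20 cell 8 alone against E16, the cell that shares their code, 2 fibrillar members were higher and 5 lower, with a median of -1.21. The share of all genes was not computed for that cell alone. Code, stage and the marker counts above moved together here, so code and stage cannot be told apart for the other 7 cells. A second fibrillar member passed 2-fold lower without any 1 of E20 cells 1, 3 and 5 or E16 cells 9 and 11.

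Within E20 the fibrillar collagens did not move as a block. E20 cells 3, 4 and 5 held 7363, 2940.2 and 2777 RPM of COL1A1, E20 cell 1 held 722 RPM, and E20 cells 2, 6 and 7 held 159 to 207 RPM. Where both chains of type I collagen reached 15 RPM, the ratio of COL1A1 to COL1A2 ran from 2.66 in E20 cell 1 to 37.9 in E20 cell 5 (5 cells), from 0.384 to 2.03 in 6 E16 cells, and from 0.109 to 8.43 in 3 gonad cells. The protein has a fixed proportion of the 2 chains, and these ratios are of 3'-end reads, so only their spread between cells is described. Across all 34 cells, both chains reached 15 RPM in 15 cells, COL1A1 alone in 7, COL1A2 alone in 3 and neither in 9.

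Outside E16 and E20 the fibrillar sum varied from cell to cell, from 5.16 to 32.3 RPM in the 3 E13 cells to 1318 RPM in the E47 cell. At E13, COL1A1 was at 0, 1.29 and 0 RPM in the 3 cells and COL5A1 at 0 RPM in each, in libraries of at most 775711 reads. The E14 cell held 179 RPM of COL1A1 and 84.0 RPM of COL2A1, but 2.16 RPM of COL3A1. At E36, COL1A1 was at 1.15, 6.16 and 349 RPM (lowest, median, highest of 6 cells), and only E36 cells 1 and 5 passed 15 RPM. The E47 cell held 108 RPM of COL1A1, 396 RPM of COL3A1, 317 RPM of COL5A1 and 284 RPM of COL1A2, the highest levels of the last 3 among gonad cells. These levels lay beside markers of gonadal somatic cells, of which 9 of 10 reached 15 RPM in the E47 cell, 5 in E36 cell 5, 4 in E55 cell 2 and 0 to 3 in the other gonad cells. Summed, these markers were at 21198 RPM in the E47 cell, 786 RPM in E36 cell 5, 220 RPM in E36 cell 1 and 162 RPM in E55 cell 2. The part of such transcripts in the levels was not tested.

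Set against each other in the same cell, fibrillar transcripts spanned a far wider range than basement membrane transcripts. The summed level of the fibrillar members ran from 5.16 to 15849 RPM over the 34 cells, and that of the type IV collagens and laminins from 287 to 1599 RPM. The balance, the log2 ratio of the fibrillar sum to the basement membrane sum (each plus 1), was -5.32 ± 2.05 at E13 (SD, n = 3 cells), -1.22 ± 0.77 at E16 (n = 11), 0.84 ± 1.67 at E20 (n = 8) and -3.51 ± 2.36 at E36 (n = 6). The basement membrane sum exceeded the fibrillar sum in 27 of 34 cells, and the 7 exceptions were 6 E20 cells and the E47 cell.

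The balance was below 0 in all 11 E16 cells, from -3.18 to -0.41, and reached 3.38 in E20 cell 3. The E20 cells below 0 were E20 cell 2 (-0.16) and E20 cell 8 (-1.95). Outside these stages it was -1.32 in the E14 cell, -2.14 and -1.44 in the E17 cells, 0.86 in the E47 cell, and -3.87 and -1.91 in the E55 cells. The E16 and E20 groups overlapped through E20 cell 8 alone. When each class was taken as its mean log2 level in place of its sum, which gives every gene the same weight, the E16 mean was 0.03, so the sign of the balance at E16 depends on how the classes are summed.

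**Figure D2:**
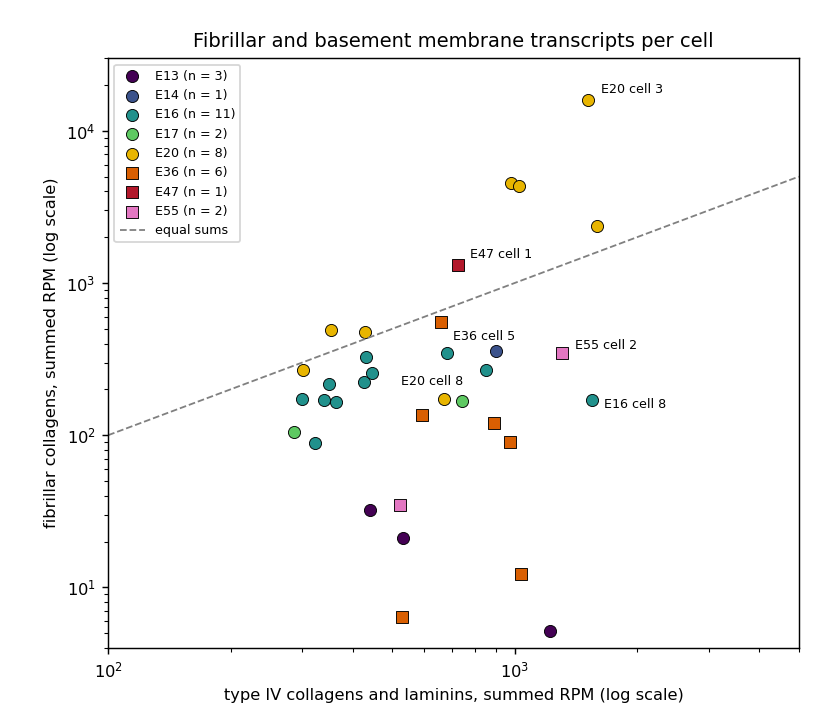
Summed RPM of the 11 fibrillar collagens (vertical axis, log scale) against summed RPM of the 17 type IV collagen and laminin genes (horizontal axis, log scale), one point per cell, coloured by embryonic day with squares for gonad cells; the dashed line marks equal sums. Points spread from 5.16 to 15849 RPM vertically but only from 287 to 1599 RPM horizontally, and 7 cells lie above the line.

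Among laminins, the alpha chain LAMA5 reached 15 RPM in every cell, the gamma chain LAMC1 in 27 of 34, and the beta chains LAMB1 and LAMB2 in 11 and 18. LAMA5, the alpha chain of laminins under epithelia and pluripotent cells, was at 78.1, 134 and 326 RPM (lowest, median, highest) in E16 cells, 19.9, 137 and 366 RPM in E20 cells and 74.6, 116 and 259 RPM in E36 cells. The 3 E13 cells held 392, 404 and 206 RPM. E16, E20 and E36 overlapped widely, with a difference between E20 and E16 of -0.50, and 2 of the E13 cells and the E14 cell (393 RPM) lay above every E16 cell. LAMC1, the gamma chain of most laminins, was at 3.38, 79.0 and 159 RPM in E16 cells and 0.74, 58.8 and 173 RPM in E20 cells, a difference of -0.41 with wide overlap.

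LAMB1, the beta chain of the early embryonic laminin, was at 4.06, 106 and 231 RPM in E20 cells and at 0, 1.03 and 487 RPM in E16 cells. Its E16 mean of 46.4 ± 146 RPM (SD, n = 11) rested on E16 cell 8, at 487 RPM. In the other 10 cells LAMB1 lay at no more than 16.3 RPM, with a mean of 2.36 RPM. The difference between E20 and E16 was 4.46, or 5.17 without E16 cell 8. LAMB2, the beta chain of later basement membranes, was at 0, 27.6 and 60.5 RPM in E16 cells and 0, 9.36 and 57.8 RPM in E20 cells, a difference under 2-fold. LAMB1 exceeded LAMB2 in 7 of 8 E20 cells and in 1 of 11 E16 cells, E16 cell 8. It also did so in the E14 cell (47.6 against 26.8 RPM), E17 cell 2 (35.7 against 2.86 RPM) and E36 cell 6 (1.24 against 0 RPM). LAMB2 exceeded LAMB1 in 9 of 11 E16 cells and 3 of 3 E13 cells. LAMA1, the alpha chain that pairs with LAMB1 in the early embryonic laminin, was more restricted: it passed 15 RPM in 7 cells, among them E16 cell 8 at 204 RPM, 3 of the 8 E20 cells, and 3 gonad cells, E47 at 85.3 RPM, E36 cell 5 at 65.9 RPM and E55 cell 2 at 31.9 RPM. These 3 gonad cells held the most markers of gonadal somatic cells, whose part in the LAMA1 level was not tested.

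An alpha, a beta and a gamma laminin chain all reached 15 RPM in 20 of 34 cells. At least 1 alpha chain did so in every cell and a gamma chain in 27. No beta chain did so in 9 cells, of which 3 were E16 cells, 5 were E36 cells and 1 was an E55 cell. In E36 cells the complete set was present in 1 of 6, although LAMC1 was at 52.3, 151 and 207 RPM there. In those 5 E36 cells LAMB1 and LAMB2 were therefore below 15 RPM beside levels of LAMA5 and LAMC1 above it. LAMB4, a beta chain next to LAMB1 in the RefSeq annotation, was at no more than 7.39 RPM in any cell, and LAMB3 was not analysed here.

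COL4A1 and COL4A2, the 2 chains of the common type IV collagen, were detected together: both reached 15 RPM in 30 of 34 cells, and no cell lacked both. They are neighbours on chromosome 17 of the table. COL4A1 was at 11, 67.2 and 258 RPM in E16 cells, 34.7, 196 and 825 RPM in E20 cells and 99.8, 199.8 and 367 RPM in E36 cells. COL4A2 was at 11.1, 51.3 and 94.4 RPM, 21.4, 138 and 313 RPM and 81.6, 140.4 and 218 RPM in the same stages. Both were more than 2-fold higher at E20 than at E16, by 1.47 and 1.27, with overlapping groups. The highest cell for both was E20 cell 1, the cell with 4 endothelial markers, and without it the differences of COL4A1 and COL4A2 were 1.12 and 1.04. The part of endothelial transcripts in these levels was not tested further. The ratio of COL4A1 to COL4A2 had a median of 1.66 over 8 E20 cells, 1.46 over 6 E36 cells and 1.31 over 9 E16 cells in which both reached 15 RPM.

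The X-linked pair COL4A5 and COL4A6, chains of a type IV collagen of smooth muscle and some epithelia, was seldom detected together. Of the 34 cells, 4 reached 15 RPM for both, 8 for COL4A5 alone, 7 for COL4A6 alone and 15 for neither. COL4A6 was at 0, 40.2 and 166 RPM in E16 cells, where 9 of 11 passed 15 RPM, and at 0, 0 and 3.44 RPM in E20 cells, where none did. Its difference of -4.17 was the largest towards E16 among all members, and it was below 15 RPM in both E17 cells and all 6 E36 cells. COL4A5 was lower at E20 than at E16 as well, by -1.43, and each of the 3 E16 cells that reached 15 RPM for it did so for COL4A6 too. In the gonad COL4A5 stood at 9.23, 29.4 and 98.9 RPM in E36 cells against 0.42, 10.7 and 65.3 RPM in E16 cells, with overlap. Over the 15 basement membrane members measured between E20 and E16, 5 were higher (33.3%, against 13.9% of all genes) and 2 lower (13.3%, against 18.9%), and the median was -0.22. The 2 lower members were COL4A5 and COL4A6.

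**Figure D3:**
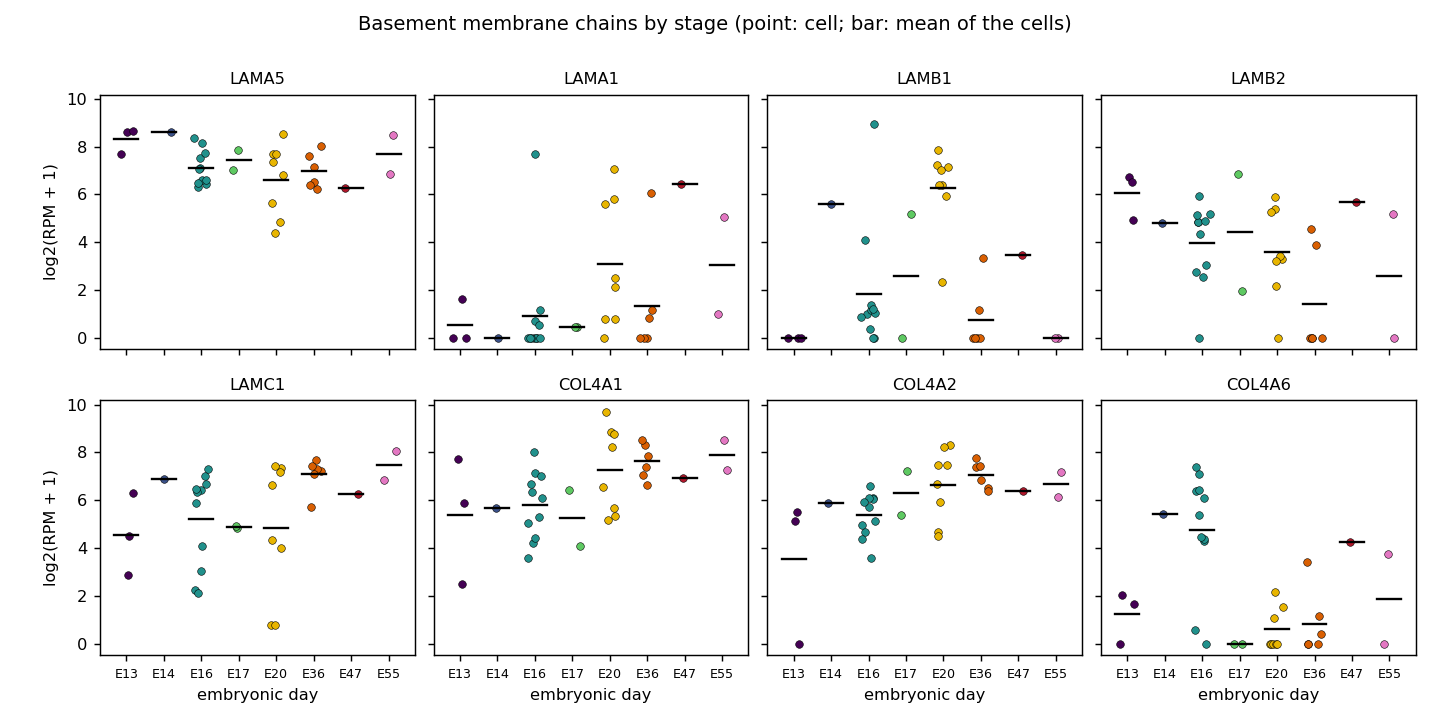
Level of 8 basement membrane chains as log2(RPM + 1) (vertical axis) by embryonic day (horizontal axis); each point is 1 cell and each bar the mean of the cells of that day. LAMA5 is above 4 in all 34 cells, LAMB1 is highest in 7 of the 8 E20 cells and 1 E16 cell, and COL4A6 is high at E16 and near 0 at E20. The E14 cell and 1 E17 cell follow for LAMB1, at 47.6 and 35.7 RPM.

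The 4 matrix partners were picked by name with earlier results of these data known. All 4 were at least 2-fold higher at E20 than at E16, against 13.9% of all genes, with a median difference of 4.96. HAPLN1, which links versican to hyaluronan, was at 3.32, 387 and 2674 RPM in E20 cells and at 0.85, 2.07 and 771 RPM in E16 cells. The 771 RPM belonged to E16 cell 8: the other 10 E16 cells lay between 0.85 and 2.53 RPM, below each of the 8 E20 cells. VCAN, a large hyaluronan-binding proteoglycan, was at 12.5, 176 and 1293 RPM in E20 cells and between 0.47 and 5.38 RPM in those 10 E16 cells, with 762 RPM in E16 cell 8. LOXL1, a lysyl oxidase that cross-links elastic fibres, was at 0.37, 122 and 450 RPM at E20 and, outside E16 cell 8 (158 RPM), at no more than 6.23 RPM at E16.

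Differences between E20 and E16 were 5.54 for HAPLN1, 4.96 for VCAN, 4.96 for LOXL1 and 3.92 for FN1, and 6.27, 5.67, 5.56 and 4.70 without E16 cell 8. HAPLN1 and LOXL1 were highest in E20 cell 1, and without it differed by 5.02 and 4.58. With E20 cell 8 as the only E20 cell the differences of HAPLN1, VCAN, LOXL1 and FN1 were -0.10, 1.32, -0.78 and -0.62, so 3 of the 4 turned in sign. E16 cell 8 is part of the E16 mean in these values. In the other 10 E16 cells HAPLN1 was at no more than 2.53 RPM, below the 3.32 RPM of E20 cell 8. FN1 was at 31.0 RPM in E20 cell 8, and those 10 cells had a mean of 31.7 RPM. VCAN and HAPLN1 are neighbours on chromosome 6 of the table. HAPLN1 never reached 15 RPM without VCAN: 8 cells passed it for both, 3 for VCAN alone, none for HAPLN1 alone and 23 for neither. The 3 cells with VCAN alone were E17 cell 2 (67.5 RPM), E36 cell 5 (35.3 RPM) and E55 cell 2 (34.8 RPM).

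FN1, the adhesive glycoprotein that mesoderm migrates on, was at 11411 RPM in E16 cell 8. The other 10 E16 cells held 14.9 to 70.7 RPM with a mean of 31.7 ± 18.4 RPM (SD), against 31.0, 821 and 4265 RPM in E20 cells. In some cells 1 of FN1 and COL1A1 was high and the other low: E16 cell 8 held 32.7 RPM of COL1A1 beside its 11411 RPM of FN1. The E14 cell held 819 RPM of FN1 and 179 RPM of COL1A1. E36 cell 5 held 349 RPM of COL1A1 beside 2.38 RPM of FN1, and the E47 cell 108 RPM beside 1.81 RPM. Across the 34 cells, 16 reached 15 RPM for both genes, 6 for FN1 alone, 6 for COL1A1 alone and 6 for neither, and both reached it in 7 of 8 E20 cells, 8 of 11 E16 cells and 0 of 9 gonad cells. E16 cell 8 also held 1430.05 RPM of APOA1, one of the endoderm markers, and the part of such transcripts in its FN1 level was not tested.

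**Figure D4:**
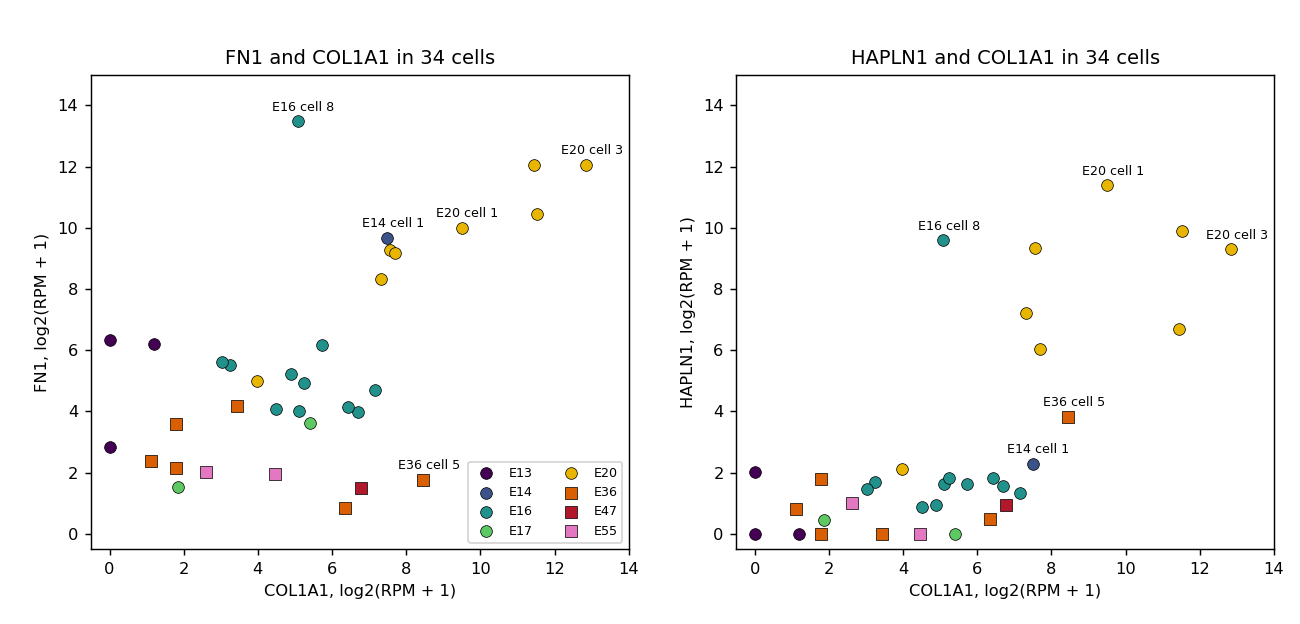
FN1 (left) and HAPLN1 (right) against COL1A1, both axes in log2(RPM + 1), one point per cell, coloured by embryonic day with squares for gonad cells. E16 cell 8 lies far above the other E16 cells in both panels at a COL1A1 level of 32.7 RPM, and the 9 gonad cells hold at most 17.2 RPM of FN1 at any COL1A1 level.

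The beaded filament collagens, type VI, which form a mesh around cells, followed the fibrillar collagens. COL6A1 was at 4.08, 439 and 2380 RPM in E20 cells and 1.67, 28.0 and 151 RPM in E16 cells, a difference of 2.80. COL6A3 was at 9.59, 138 and 1174 RPM and 1.27, 27.6 and 110 RPM, a difference of 2.34. COL6A2 was at 0, 33.5 and 328 RPM and 0, 29.1 and 61.3 RPM, a difference of 1.04 that came to -0.08 when medians over cells were compared. All 3 measured members were thus at least 2-fold higher at E20, against 13.9% of all genes, with overlap between groups. The 4 highest cells of E20 were cells 1, 3, 4 and 5 for each gene. COL6A1 and COL6A2, neighbours on chromosome 3 of the table, both reached 15 RPM in 10 cells, COL6A1 alone in 9, COL6A2 alone in 2 and neither in 13. The difference between the 2 neighbours was plain at E36, where COL6A2 passed 15 RPM in E36 cell 1 only (127 RPM) while COL6A1 was at 0.40 RPM in that cell and at up to 124 RPM in others.

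Fibril-associated collagens, which coat fibrils, and the multiplexins, which join basement membranes to the tissue beneath, were detected in fewer cells. COL21A1 reached 15 RPM in 4 cells only, all at E20, where it was at 0, 16.4 and 149 RPM, and it was at no more than 0.895 RPM in E16 cells. Its difference was 3.34. COL14A1, which binds decorin on mature fibrils, went the other way, at 0, 20.0 and 77.7 RPM in E16 cells and 0, 0.47 and 67.4 RPM in E20 cells, a difference of -2.09. COL9A2 and COL9A3, chains of the type IX collagen of cartilage and eye, were at 0 RPM in 4 or more cells of each of E16, E20 and E36, with single high cells such as E20 cell 2 (COL9A2, 234 RPM) and E36 cell 5 (COL9A3, 160 RPM). Over the 6 fibril-associated members measured, 3 were higher at E20 (50%, against 13.9% of all genes) and 1 lower (16.7%, near the 18.9% of all genes). The 3 were COL21A1, COL9A2 and COL9A3. COL9A2 had a median of 0 RPM at both stages and passed 15 RPM in 3 of 8 E20 cells. The multiplexin COL18A1, the source of endostatin, was at 0, 39.1 and 277 RPM in E20 cells and at no more than 2.04 RPM in E16 cells other than E16 cell 8 (20.6 RPM), a difference of 4.15. COL15A1, the other multiplexin, passed 15 RPM in 11 cells spread over E16, E17, E20, E36 and E47, with a difference of -0.21. Of the other collagens, COL23A1 was at 4.65, 31.4 and 64.1 RPM in E16 cells and 0, 11.7 and 54.3 RPM in E20 cells, a difference of -1.87, and its highest level was 287 RPM in E17 cell 1.

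In all, 46 of the 58 members were measured between E20 and E16: 22 were at least 2-fold higher at E20, 5 were lower and 19 differed by less than 2-fold. That is a larger share higher, and a smaller share lower, than the 13.9% and 18.9% of all genes, and the members' median was 0.72 against -0.12. The median depended on the setting: it was 0.00, with 8 members lower, when medians over cells were compared, 1.82 with a minimum of 15 RPM, and 1.34 without E20 cell 6. Without E16 cell 8 and E20 cell 8, an exclusion chosen after the data were seen, 24 were higher and 5 lower, with a median of 1.14. With E20 cell 8 alone against E16, 13 were higher and 15 lower, with a median of -0.66. For none of these altered settings was the share of all genes computed, so the 13.9% and 18.9% do not apply to their counts.

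With all 25 embryo cells included, gonad cells held fewer fibrillar and partner transcripts than embryo cells and more of the common type IV collagen and LAMC1. Of the 50 members measured here (9 and 25 cells), 6 passed 2-fold towards the gonad and 17 towards the embryo, and the median difference was -0.29. The 15245 genes measured gave 7.62% and 15.1% in these directions and a median of -0.17, so a larger share of the members than of all genes passed in each direction. Organ and stage cannot be told apart, since every gonad cell is later than every embryo cell. The lower fibrillar and partner levels also depended on which embryo cells were included. Without E20 cells 1 to 7 and E16 cell 8, FN1 alone of the partners stayed at least 2-fold lower in the gonad. Fibrillar members that passed 2-fold were then no longer mostly lower, as given below.

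In gonad cells LAMC1 was at 52.3, 146 and 266 RPM (lowest, median, highest), and in embryo cells at 0.74, 58.7 and 173 RPM. It reached 15 RPM in 9 of 9 and 18 of 25 cells, with means of 147 ± 64.8 RPM (SD, n = 9) and 64.8 ± 58.0 RPM (n = 25) and a difference of 2.01. The gonad levels of COL4A1 were 99.8, 169 and 369 RPM, its embryo levels 4.61, 67.2 and 825 RPM, and the difference was 1.44. COL4A2 was at 68.7, 115 and 218 RPM and 0, 57.1 and 313 RPM, a difference of 1.23. The gonad cells lay within the range of the embryo cells for COL4A1 and COL4A2, but none fell to the low levels seen in some embryo cells. COL4A5 (1.59), LAMA2 (1.15) and COL11A1 (1.25) were the other members higher in the gonad. Among basement membrane members 5 of 15 were higher (33.3%, against 7.62% of all genes) and 3 lower (20%, near the 15.1% of all genes). The lower ones were LAMB1 (-2.36), LAMB2 (-2.02) and COL4A6 (-1.21). Without E16 cell 8 and E20 cells 1 to 7, LAMB1 had an embryo median of 1.02 RPM and reached 15 RPM in 3 of 17 embryo cells. Within the code MS11 the difference of COL4A6 turned in sign.

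FN1 had the largest difference, -4.47, with gonad levels of 0.80, 3.07 and 17.2 RPM and embryo levels of 1.87, 47.6 and 11411 RPM. It reached 15 RPM in 1 of 9 and 21 of 25 cells. FN1 was low in both E17 cells as well (1.87 and 11.4 RPM), which carry the code of the gonad cells, and within that code its difference was -0.31. HAPLN1 (-2.66), VCAN (-1.55) and LOXL1 (-1.47) were also lower. Without E16 cell 8 and E20 cells 1 to 7, an exclusion chosen after the data were seen, FN1 still differed by -2.65, HAPLN1 by -0.29, and VCAN and LOXL1 by 0.36 and 0.37, so HAPLN1, VCAN and LOXL1 no longer differed by 2-fold.

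Of 10 fibrillar members 5 were lower in the gonad (50%, against 15.1% of all genes) and 1 was higher (10%, near the 7.62% of all genes). Their median was -0.83. With a pseudocount of 10 RPM, 0 of them were higher and 1 was lower, and the share of all genes was not computed at that setting. COL1A1 levels were 1.15, 9.85 and 349 RPM in the gonad and 0, 41.1 and 7363 RPM in the embryo, a difference of -1.71, and COL5A1 differed by -1.72. COL11A1, the higher one, fell under 2-fold without any 1 of E36 cells 2, 5 and 6 or the E47 cell. Without E16 cell 8 and E20 cells 1 to 7 these differences were -0.14 and -0.58, and 2 fibrillar members were higher and 1 lower. Leaving out the 3 gonad cells with 4 or more somatic markers, COL1A1 differed by -2.95 and COL5A1 by -3.08, and 7 fibrillar members were lower and 0 higher. The share of all genes was not computed after either exclusion. Over all gonad and embryo cells, the type VI chains COL6A3 (-3.09), COL6A2 (-2.43) and COL6A1 (-1.71) were lower too. Their gonad medians were, in that order, 0.77, 0.34 and 12.7 RPM. Without E16 cell 8 and E20 cells 1 to 7, their embryo medians were 10.4, 10.4 and 6.27 RPM. COL6A1 was thus not lower in the gonad by this measure, and within the code MS11 COL6A1 and COL6A2 turned in sign. LAMC1 and COL4A1 stayed at least 2-fold higher in the gonad under both exclusions, by 2.27 and 2.05 after the first and by 2.21 and 1.5 after the second. Within the code MS11, gonad against the 2 E17 cells, LAMC1 differed by 2.19 and COL4A1 by 2.38, COL4A2 by 0.59 and COL1A1 by 0.46.

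**Figure D5:**
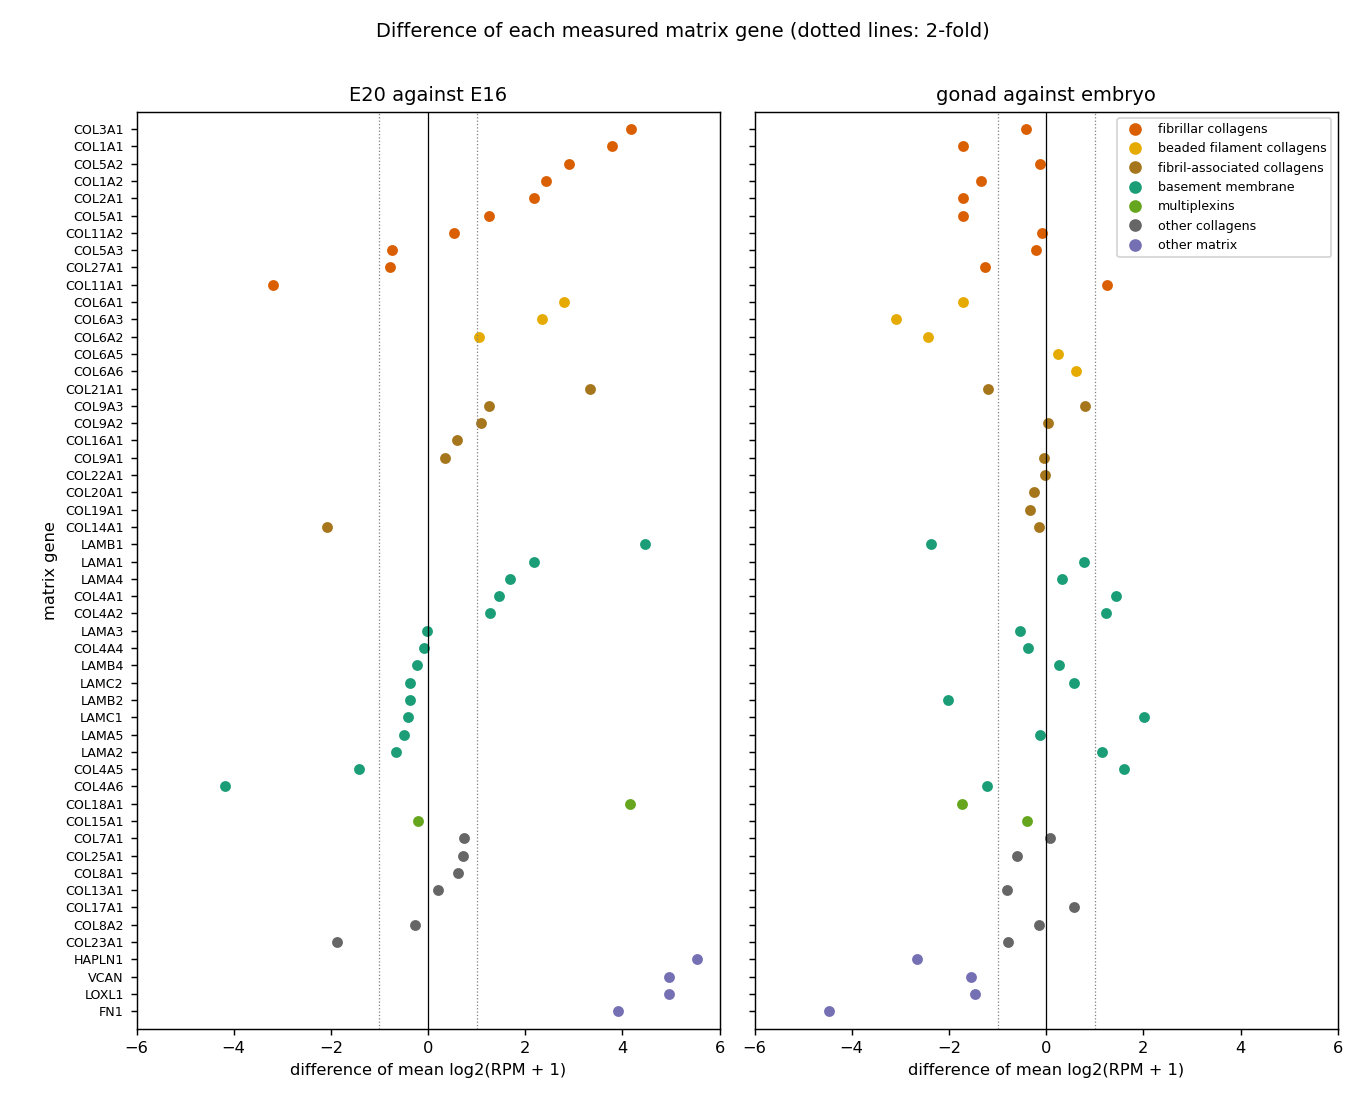
Difference of mean log2(RPM + 1) of each measured member (vertical axis, coloured by class) for E20 against E16 (left, 46 genes) and gonad against embryo (right, 50 genes); points to the right of 0 are higher in E20 or in the gonad, and dotted lines mark 2-fold. The matrix partners, COL18A1 and most fibrillar and type VI collagens lie right of 0 on the left panel and left of 0 on the right panel; the E20 cells enter both comparisons.

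To place each cell by other genes, cells were clustered on the 1000 most variable genes with all matrix members and their partner genes left out. The smaller of the 2 clusters held 8 cells, E20 cells 1 to 7 and E16 cell 8, and was led by HAND1, MSX1 and RSPO3, whereas the larger held 26 cells and was led by NANOG, SOX15 and NLRP2. HAPLN1, VCAN, LOXL1, LAMB1, FN1, COL1A1 and COL5A1 each reached 15 RPM in 8 of 8 cells of the smaller cluster, as did LAMA5, COL4A1 and COL4A2. Among the 17 embryo cells of the larger cluster, HAPLN1 did so in 0, VCAN in 1, LOXL1 in 2, LAMB1 in 3, COL5A1 in 8, COL1A1 in 10 and FN1 in 13. There LAMA5 did so in 17, and COL4A1 and COL4A2 in 15 each. HAPLN1 thus separated the 2 groups of embryo cells completely at this level, while FN1 and COL1A1 differed in amount, with overlap. FN1 was at 318, 1203 and 11411 RPM in the smaller cluster and 1.87, 29.7 and 819 RPM in those 17 cells. COL1A1 was at 32.7, 464 and 7363 RPM against 0, 28.8 and 179 RPM. COL3A1 was at 4.03, 470 and 5332 RPM against 0, 11 and 32.5 RPM, and the cells of the smaller cluster inside the range of the larger one were E16 cell 8 and E20 cell 6.

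The genes that fold, anchor and bind these proteins were read from 5 lists. Of 19 measured genes for collagen folding and processing, 8 were at least 2-fold higher at E20 than at E16 (42.1%, against 13.9% of all genes) and 0 lower, with a median of 0.30. They included SERPINH1, the collagen-specific chaperone, at 815 ± 501 RPM (SD, n = 8) against 163 ± 173 RPM (n = 11), a difference of 2.51, and FKBP10, a prolyl isomerase of procollagen, with a difference of 3.89. Of 9 basement membrane partners 7 were higher and 0 lower (median 1.66, against 13.9% and 18.9% of all genes), led by SPARC, which binds type IV collagen (3.56), and the linker protein NID1 (2.84). Of 17 receptors 5 were higher (29.4%, against 13.9% of all genes) and 3 lower (17.6%, near the 18.9% of all genes), with a median of 0.59. Among them are the 2 collagen receptor kinases: DDR2 was higher at E20 (4.24) and DDR1 lower (-2.64). ITGA6, the alpha subunit of laminin-binding integrins, was lower (-2.08), and ITGAV, of RGD-binding integrins, was higher (2.31).

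In the gonad comparison 1 of the 19 folding genes was higher and 5 lower (26.3%, against 15.1% of all genes), with a difference of -1.49 for SERPINH1. Among receptors 1 of 17 was higher (5.88%, near the 7.62% of all genes) and 4 lower (23.5%, against 15.1%). The higher one was ITGA6, at 410.0 ± 121 RPM (SD, n = 9) in gonad cells and 209 ± 175 RPM (n = 25) in embryo cells, a difference of 1.67, detected at 15 RPM in 9 of 9 and 22 of 25 cells. The lower ones were ITGA5 (-2.81) and ITGAV (-1.65), both alpha subunits of fibronectin-binding integrins, with ITGB5 (-2.40) and ITGA7 (-1.92). ITGA5 reached 15 RPM in 0 of 9 gonad cells. The folding and receptor lists were not compared without E20 cells 1 to 7 and E16 cell 8, so how far these differences depend on those cells was not tested. SERPINH1 and ITGAV were also higher at E20 than at E16.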

How the data were processed

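Single-cell transcripts were measured by SC3-seq, 1 cell per sample, and each stage was taken as 1 sample. The table the authors deposited holds RPM as log2(RPM + 1), which the values show: turned back, its columns sum to between 992085 and 995711 RPM. Tools named, without a role, are TopHat 1.4.1, Cufflinks 2.2.0 and cutadapt 1.3, per the submitters' processing notes. Build and annotation: not given in the sources used here. Depth per cell came from the RPM worth 1 read, its most frequent value above 0 (99.7% to 100.0% of low values whole within 0.1 read), giving 472188 to 3556592 reads, median 2001690. Poisson intervals at 95% cover counting error only, since reads carry no molecular identifiers. All value columns were used (0 left out).

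Members were counted as measured at a mean of 1 RPM in 1 group, and as higher or lower at 2-fold. Values in every cell were summarised for the members with the highest mean, up to 4 per class, if at least 20 RPM in a stage. COL5A2, COL2A1, COL11A1, LAMA1, LAMA2, LAMB1, LAMB2, LAMB4, COL4A5 and COL4A6 were chosen outside this rule after their values were seen, as were single cells named. Partner genes named were also chosen after their values were seen, from lists of which 3 of 27 folding genes had no match. Members and lists were chosen with earlier results of these data known. All 58 members matched the RefSeq table (assembly T2T-MFA8v1.1) by gene ID, used only for names and neighbours. Clustering used average linkage on 1 minus Pearson correlation. Python 3.11.15, numpy 2.4.6, pandas 2.3.3, scipy 1.17.1 and matplotlib 3.10.9 were used. Only the differences and 2-fold calls were tried on simulated data, for genes of higher level than many members. The alternatives tried changed the pseudocount, the minimum, the averaging, the scaling, and the cells included.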

Additional observations from a re-analysis of the deposited data

Results flagged for a closer look

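In the 8 E20 and 6 E36 cells, the 23 members named by the rule, the summed levels of the classes and of all members, and the balance were screened. A cell was marked if its gap to the nearest other, relative to the range, passed Dixon's 95% critical value. Of 54 groups screened 8 were marked. The rate of about 1 in 20 that this value gives for normal data does not apply here. A group with 1 cell above 0 is marked whatever its level, as were COL9A2, COL9A3, COL25A1 and COL21A1 at E36. At E20, LOXL1 was lowest in E20 cell 8, at 0.45 on the log2(RPM + 1) scale with the nearest other cell at 4.85; that cell carries the code of the E16 cells and 8 of 11 germ cell markers. COL25A1, a membrane-spanning collagen, was highest in E20 cell 6 (5.81, nearest 2.63).

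At E36, E36 cell 5 stood apart for 3 members: it was lowest for LAMC1 (5.74, nearest 7.10) and the only cell above 0 for COL9A2 (5.90) and COL9A3 (7.33). It also held 5 of 10 gonadal somatic markers at 15 RPM, whose part was not tested. COL6A2 was highest in E36 cell 1 (7.0, nearest 1.16). COL25A1 in E36 cell 2 (1.16) and COL21A1 in E36 cell 4 (0.47) were each the sole cell above 0, at 1 read each.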

How the results depend on the processing

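No paired analysis was possible because each sample is 1 cell, replicate numbers follow accession order and no test was run. Of 187 values over 22 results, 146 stayed within the spread between cells or within 1.5 times the count, 39 moved and 2 turned in sign; for single members, of 480 values over 64 results 432 stayed, 21 moved and the 27 named below turned in sign. For E20 against E16, pseudocount 10 gave 3 higher and 1 lower basement membrane genes and 2 lower members in all, a minimum of 15 RPM a member median of 1.82, and medians over cells 2 lower fibrillar genes, 8 lower members and a member median of 0.00. Ratios of mean RPM gave 2 lower fibrillar, 1 lower basement membrane and 3 lower genes in all. The E20 cell of code MS09 alone gave 2 higher and 5 lower fibrillar genes (median -1.21), 4 lower basement membrane genes (median 0.62), and 13 higher and 15 lower members (median -0.66). For the same cell, differences turned for FN1 (-0.62), HAPLN1 (-0.10), LOXL1 (-0.78), COL18A1 (-0.77), COL1A1 (-1.21), COL5A1 (-3.73), COL6A1 (-1.85), COL6A3 (-0.75), COL9A2 (-1.14), COL9A3 (-1.08), LAMA1 (-0.12), COL5A2 (-0.98), COL2A1 (-1.97) and COL4A5 (1.69), and for COL6A2 with medians over cells (-0.080). The E16 mean in these values includes E16 cell 8, which held 11411 RPM of FN1, 771 RPM of HAPLN1 and 204 RPM of LAMA1.

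For gonad against embryo, pseudocount 10 gave 0 higher and 1 lower fibrillar genes, 2 higher and 1 lower basement membrane genes and 2 higher and 8 lower members. Medians gave 2 higher fibrillar and 3 higher basement membrane genes, ratios of means 3 higher basement membrane genes. Code MS11 alone gave 2 higher and 2 lower fibrillar genes, a basement membrane median of 1.2 and 13 higher members. Without E20, 2 fibrillar genes were higher and 2 lower, and 8 members lower. Chosen after the data were seen, leaving out gonad cells with somatic transcripts gave 0 higher fibrillar genes, and the larger cluster alone 2 higher, 1 lower and 7 lower members. Differences turned within MS11 for HAPLN1 (0.76), COL1A1 (0.46), COL5A1 (0.0047), COL6A1 (3.11), COL6A2 (1.22), COL21A1 (0.052), LAMA2 (-1.30) and COL4A6 (1.44), for VCAN with medians (0.095), without E20 (0.016) and in the larger cluster (0.36), and for LOXL1 there (0.37). With mean log2 levels the balance was -2.01 at E13, 0.031 at E16 and -1.15 at E36. The cause of these changes was not tested. For the altered settings, the share of all genes was not computed.

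Leaving out 1 cell in turn, the fibrillar median between E20 and E16 was 1.19 to 2.23 (5 to 6 higher, 1 to 2 lower, 2 without E20 cell 1, 3 or 5 or E16 cell 9 or 11), the basement membrane median -0.33 to 0.12 (5 higher, 2 to 3 lower) and the member median 0.67 to 1.34 (19 to 23 higher, 5 to 7 lower). For the gonad the ranges were -1.37 to -0.57 (0 to 1 higher, 0 without E36 cell 2, 5 or 6 or the E47 cell, 4 to 5 lower), 0.07 to 0.51 (4 to 6 higher, 3 lower) and -0.48 to -0.17 (5 to 8 higher, 16 to 18 lower). Balance means ran from -6.11 to -4.16 at E13, -1.30 to -1.02 at E16, 0.48 to 1.24 at E20 and -4.17 to -2.96 at E36. Depth limits low levels: at E13 1 read is worth up to 2.12 RPM.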

Other observations

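Of 13 other interstitial matrix genes 5 were at least 2-fold higher at E20 (38.5%, against 13.9% of all genes) and 2 lower (15.4%, near the 18.9% of all genes), with a median of 0.97. POSTN, which binds fibrillar collagen, was at 137 ± 158 RPM (SD, n = 8) in E20 cells and 3.54 ± 8.39 RPM (n = 11) in E16 cells, and LUM, a keratan sulfate proteoglycan of collagen fibrils, at 209 ± 278 RPM and 8.63 ± 10.9 RPM. The microfibril protein FBN2 differed by 3.61. FBLN2 was lower at E20 (15.1 ± 18.6 RPM against 37.1 ± 24.7 RPM, a difference of -1.92). Of 8 matrix proteases and inhibitors 4 were higher (50%, against 13.9% of all genes) and 2 lower (25%, against 18.9%), with a median of 1.23. The inhibitors TIMP1 (2.75) and TIMP3 (2.83) were higher, and the proteases MMP2 (-1.13) and ADAM19 (-3.26) lower.

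In the gonad, 1 of the 13 interstitial genes was higher (7.69%, near the 7.62% of all genes) and 5 lower (38.5%, against 15.1%). Of the 8 proteases and inhibitors 0 were higher (against 7.62% of all genes) and 3 lower (37.5%, against 15.1%). DCN, decorin, was the higher one, at 44.9 ± 60.1 RPM (SD, n = 9) against 12.3 ± 22.9 RPM (n = 25), a difference of 1.3. ADAM19 reached 15 RPM in 0 of 9 gonad cells and 21 of 25 embryo cells, a difference of -4.53. MMP2, a gelatinase, reached 15 RPM in 34 of 34 cells, 9 of 9 in the gonad and 25 of 25 in embryos. Of 8 basement membrane partners 0 were higher (against 7.62% of all genes) and 3 lower (37.5%, against 15.1%), among them NID2 (-1.98). These lists too were not compared without E20 cells 1 to 7 and E16 cell 8, so how far their differences depend on those cells was not tested.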
